A study of Ovis aries with 115 samples.

Results

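Cervical gene expression was compared between Fur and Suffolk ewes sampled in the follicular phase after oestrous synchronisation. The ewes were taken by their labels, as every library marked with an induced cycle, a follicular phase and either of these breeds, which gave 8 Fur and 11 Suffolk ewes, 19 of the 115 samples of the series. Fur ewes were sampled in Norway and have high pregnancy rates after cervical artificial insemination with frozen-thawed semen, whereas Suffolk ewes were sampled in Ireland and have low ones. All ewes were multiparous and were synchronised with an intravaginal progestagen sponge followed by equine chorionic gonadotrophin, and cervical tissue was taken post mortem. Each breed came from 1 country, and breed, country and anything else that differed between the sites cannot be told apart. The question behind the comparison is which genes differ in the cervix of breeds through which frozen-thawed sperm pass with different success.

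The cervix is a collagen-rich tube with smooth muscle in its wall and a folded, mucus-secreting epithelium on its inner face. Under the oestrogen of the follicular phase its epithelium secretes thin mucus and its stroma loosens, and leucocytes enter the tissue. Libraries were made from whole tissue, so fewer cells of a type and less RNA per cell cannot be told apart in any value given here. Transcripts of the tissue's main parts were found in all 19 ewes: the membrane mucin MUC16 was at 246 CPM (reads scaled to library size) or more, PAX8, a transcription factor of the epithelium of the female tract, at 27.8 CPM or more and DES, the intermediate filament protein of muscle, at 16.3 CPM or more.

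Read counts on genes totalled 16436861 to 22668698 per Fur ewe and 15177320 to 31261671 per Suffolk ewe, and the mean totals did not differ beyond the spread of the ewes (two-sided exact permutation test, p = 0.649). Of 27054 gene identifiers, 14811 reached 1 CPM in at least 10 of the 39 ewes of this state and were tested with edgeR's quasi-likelihood test and Benjamini-Hochberg adjustment, from which every adjusted p below comes. Log2 fold changes are Fur over Suffolk with their standard error (SE), and CPM values are given for the lowest, the median and the highest ewe of each breed. Levels were not compared between genes, since gene lengths were not used here. Each library is a different ewe by its labels, and the p-values measure the spread between these ewes.

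At an adjusted p below 0.05 and a fold change above 1.5, 1965 genes were differentially expressed (DEGs), 13.3% of those tested. In Fur, 1081 genes were higher (7.3%) and 884 lower (5.97%). The higher genes had the larger changes. Their median fold was 1.95 against 1.78 for the lower genes, 53 of them against 14 differed more than 8-fold, and 255 of them (23.6%) against 79 (8.94%) had no overlap between the ewes of the breeds. Over all genes tested, every Fur ewe was above every Suffolk ewe for 417 genes (2.82%) and below for 140 (0.945%), and the median log2 fold change was -0.02. The ewes of a breed differed more in the DEGs than elsewhere: the SD was 35.8% of the mean in Fur and 33.8% in Suffolk over the median higher gene, against 19.7% and 22.4% over the median gene tested.

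**Figure D1:**
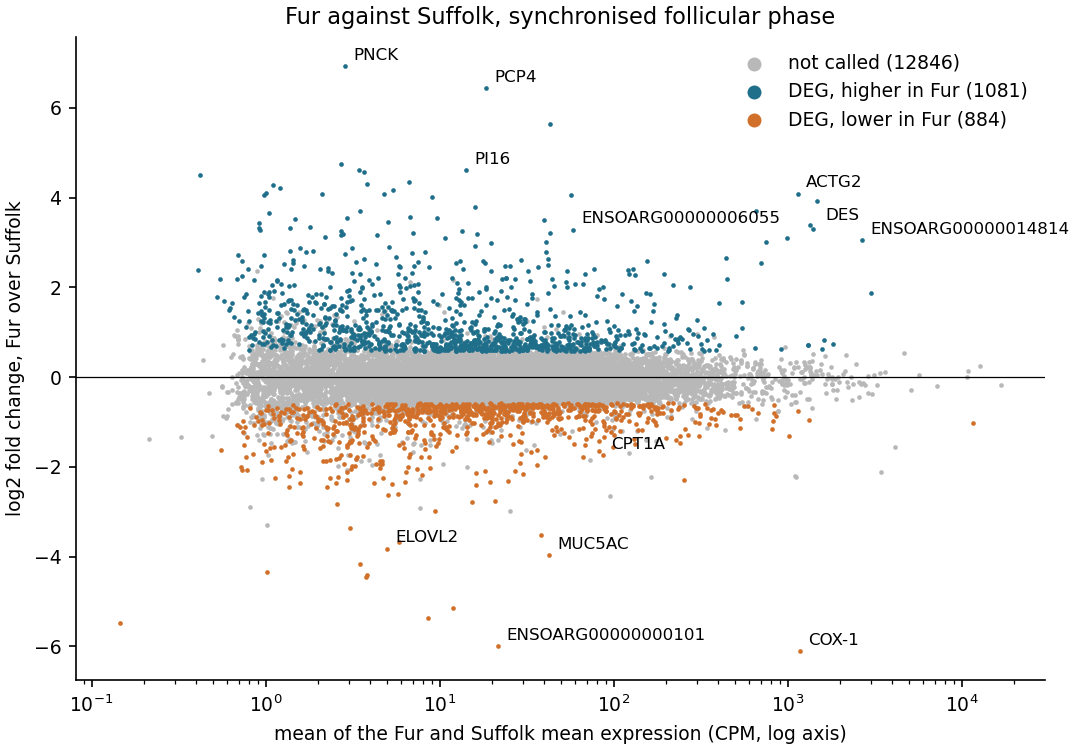
Log2 fold change of Fur over Suffolk at the synchronised follicular phase (vertical axis) against the mean of both breeds' mean expression in CPM (horizontal log axis) for the 14811 genes tested, with the 1081 DEGs higher in Fur in blue, the 884 lower DEGs in orange and the rest in grey. Points above a log2 fold change of 3 run from low expression up to genes above 1000 CPM, such as ACTG2 and DES, whereas below -3 COX-1 is the only gene above 1000 CPM.

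Names were at hand for few of the higher genes. Only 15 of the 1081 had one, against 777 of the 884 lower genes, because names were taken from the tables of the study, whose readable table for this breed pair lists genes called higher in Suffolk. The other 1066 are therefore known here by their identifiers. Those of smallest p were separated cleanly between the breeds. ENSOARG00000017888 was at 102, 199 and 376 CPM in the lowest, median and highest Fur ewe and at 32.1, 44.3 and 59.2 CPM in Suffolk (log2 fold change 2.27, SE 0.18, adjusted p = 2.97e-07). ENSOARG00000017989 was at 8.54, 9.65 and 12.03 CPM in Fur and 1.03, 1.71 and 4.19 CPM in Suffolk (log2 fold change 2.46, SE 0.20, adjusted p = 3.43e-07). Neither gene had a Fur ewe within the range of Suffolk. The same was true of ENSOARG00000006055, at 30.0, 101 and 231 CPM against 6.98, 9.92 and 17.7 CPM, and of ENSOARG00000007348, at 42.1, 52.2 and 63.1 CPM against 20.4, 26.7 and 31.2 CPM.

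Several unnamed genes combined a large change with a high level. ENSOARG00000014814 was at 2006, 4588 and 8264 CPM in Fur and 115, 522 and 1261 CPM in Suffolk (log2 fold change 3.06, SE 0.40, adjusted p = 2.61e-05). ENSOARG00000020797 was at 549, 1103 and 2008 CPM against 118, 202 and 311 CPM (log2 fold change 2.54, SE 0.23, adjusted p = 1.01e-06). Again no ewe of one breed fell within the range of the other. The ranges did overlap for ENSOARG00000005208, at 1760, 4599 and 9307 CPM in Fur and 692, 1284 and 2059 CPM in Suffolk. ENSOARG00000003044 had the third-largest fold change of these genes of at least 5 CPM in the higher breed, at 40.4, 56.7 and 196 CPM against 0, 1.68 and 5.67 CPM (log2 fold change 5.65, SE 0.63, adjusted p = 7.24e-06).

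Members of a smooth muscle and contraction list, chosen after their values were seen, made up 7 of the 15 named genes that were higher in Fur. The list also holds PNCK and PCP4, whose proteins act with calmodulin. Of its 13 tested members, 7 were higher (against 7.3% of all genes), 4 lower and 2 not called. The median log2 fold change of the list was 3.80. Of these 7, PCP4, ACTC1, ACTG2 and ASB2 carry names because the study listed them as lower in Suffolk than in these Fur ewes, and PNCK, POPDC2 and DES because it listed them as lower in Suffolk than in Norwegian White Sheep, a comparison that shares the Suffolk ewes, so their direction here is not independent evidence. PNCK, a calcium/calmodulin-dependent protein kinase, was at 2.02, 6.21 and 9.93 CPM in Fur and never exceeded 3 counts in a Suffolk ewe, where its highest level was 0.198 CPM (adjusted p = 3.62e-08). Against a level of 3 counts per Suffolk library, 0.163 CPM on average, its mean in Fur was at least 34.9-fold higher, and it was the only gene with so few counts in every ewe of one breed and at least 1 CPM in every ewe of the other. PCP4, a small calmodulin-binding protein, was at 12.96, 31.0 and 72.7 CPM against 0, 0.262 and 0.943 CPM (log2 fold change 6.45, SE 0.54, adjusted p = 5.69e-07).

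ACTG2, the gamma actin of visceral smooth muscle, was at 935, 1877 and 4415 CPM in Fur and 10.02, 115 and 260 CPM in Suffolk (log2 fold change 4.09, SE 0.48, adjusted p = 1.22e-05). DES was at 832, 2679 and 4926 CPM against 16.3, 187 and 423 CPM (log2 fold change 3.93, SE 0.53, adjusted p = 3.43e-05). In both genes the lowest Fur ewe lay above the highest Suffolk ewe, and the ewes within each breed differed several-fold. Cardiac actin, ACTC1, was higher by 4.30 on the log2 scale, POPDC2, a membrane protein of striated and cardiac muscle, by 4.62 and ASB2, a ubiquitin ligase subunit that acts on filamins, by 3.80. Among the members that were lower in Fur, TPM3, a tropomyosin of many cell types, fell by 0.59 on the log2 scale. The 4 lower members carry names because the study listed them as higher in Suffolk, and the count of lower members was 2 without Fur replicate 2. The summed level of the list was 2579 to 9515 CPM in Fur and 936 to 1858 CPM in Suffolk, with no overlap. The list was chosen after its values were seen, so this separation is not independent evidence. At the natural follicular phase the sums overlapped, at 2485 to 8329 CPM in Fur and 998 to 7099 CPM in Suffolk. They also overlapped at the synchronised luteal phase. Whether the tissue pieces held different amounts of muscle was not tested.

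**Figure D2:**
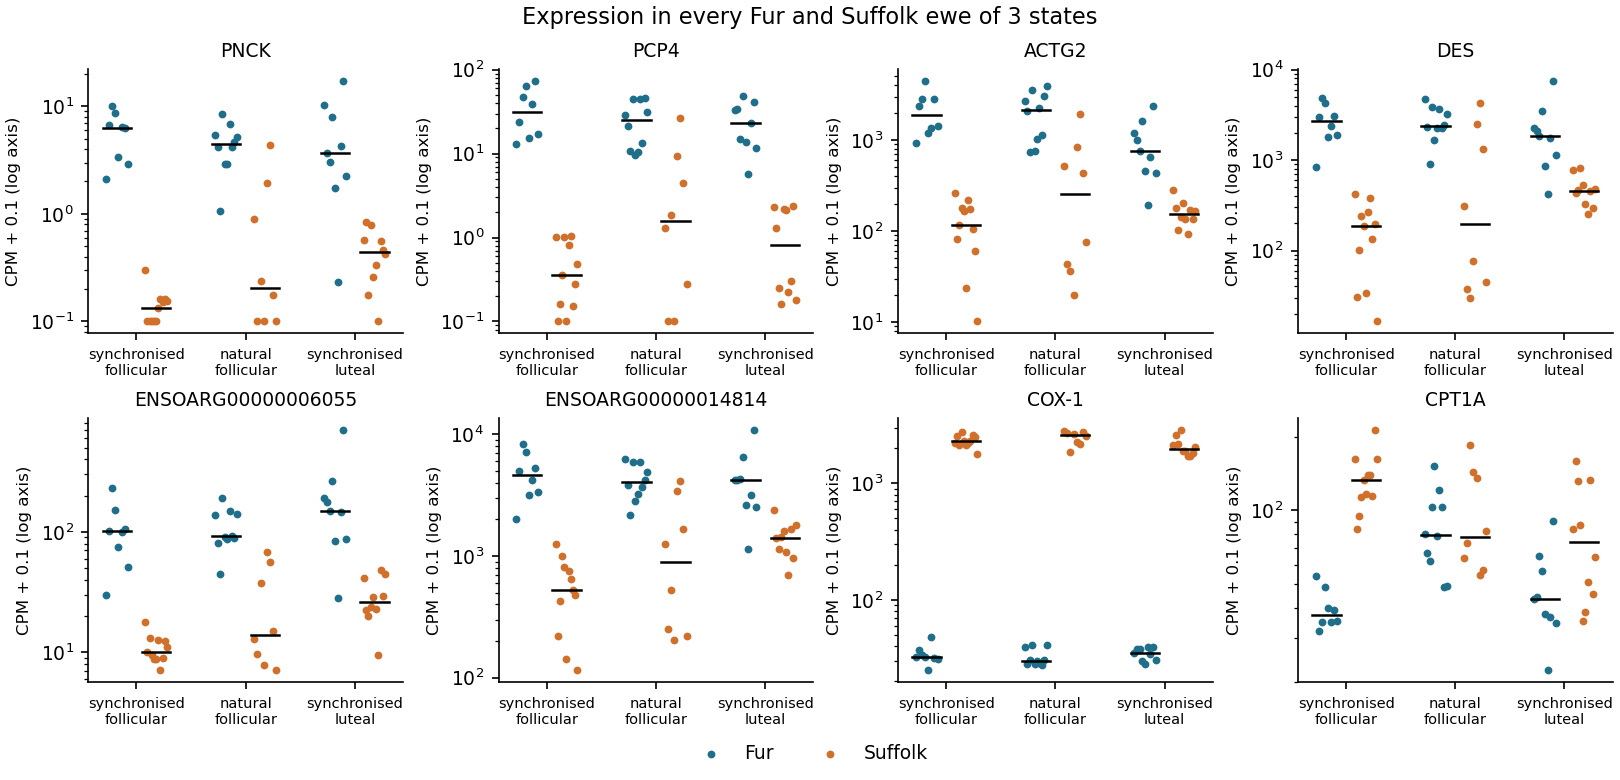
CPM plus 0.1 on a log axis for 8 genes in every Fur (blue) and Suffolk (orange) ewe of the synchronised follicular, natural follicular and synchronised luteal phases, with a bar at the median of each group. At the synchronised follicular phase no ewe of one breed lies within the range of the other in any panel, whereas at the natural follicular phase the ranges of the breeds overlap in every panel but that of COX-1.

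The stromal gene PI16, a peptidase inhibitor expressed in a widespread class of fibroblasts, was at 5.36, 14.3 and 83.5 CPM in Fur and 0.514, 0.763 and 3.30 CPM in Suffolk (log2 fold change 4.61, SE 0.51, adjusted p = 7.24e-06). EGFL6, a matrix protein, was also higher, by 1.13 on the log2 scale, although its ewes overlapped. These were the only higher members of a list of 35 fibroblast and extracellular matrix genes. Of the list, 23 were lower in Fur (65.7%), 10 were not called and the median log2 fold change was -0.91. The study listed 33 of the 35 as higher in Suffolk on these same ewes. It listed PI16 as lower in Suffolk than in these Fur ewes, and EGFL6 as lower than in Belclare ewes. The direction of the list is therefore not independent evidence. ADAMTS14, a protease that trims procollagen, was at 2.24, 3.63 and 6.73 CPM in Fur and 7.35, 13.1 and 21.7 CPM in Suffolk (log2 fold change -1.77, SE 0.25, adjusted p = 5.07e-05). COMP, a matrix glycoprotein that binds collagen, was at 0.978, 1.26 and 1.52 CPM against 2.23, 4.06 and 7.37 CPM, and PDGFRB, a growth factor receptor of fibroblasts and pericytes, at 82.9, 112 and 143 CPM against 164, 219 and 417 CPM. For each of these 3 genes every Fur ewe was below every Suffolk ewe.

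How the lower lists read depends on where the names come from. Of 1432 tested genes that the study had listed as higher in Suffolk on these same ewes, 854 (59.6%) were lower in Fur here, with a median log2 fold change of -0.69, and the direction of the members of a list built from those names is not independent evidence. That table also holds genes short of the 1.5-fold change that a DEG needed here. None of the 1432 was called higher in Fur here, so a list of such names could hold no higher member. Shares of lower members are to be read against the 59.6%. The lists give which members moved and by how much. Ewes in other states of the cycle took no part in that listing, and values from them follow further on.

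The lower gene of smallest p was COX-1, here the mitochondrially encoded subunit 1 of cytochrome c oxidase and not cyclooxygenase 1. It was at 24.6, 32.2 and 47.8 CPM in Fur and 1787, 2319 and 2779 CPM in Suffolk (log2 fold change -6.11, SE 0.14, adjusted p = 5.45e-17). The breeds were far apart and the ewes within each were close together. MT-ND6, a subunit of complex I and the only other mitochondrially encoded gene tested that has a name, was at 6.37, 9.12 and 11.3 CPM against 6.97, 14.4 and 22.7 CPM, a log2 fold change of -0.71 (SE 0.19, adjusted p = 0.00938) with overlapping ewes. PTGS1, the cyclooxygenase that shares the abbreviation, was at 16.02, 22.1 and 31.1 CPM against 17.5, 35.1 and 74.0 CPM (log2 fold change -0.69, SE 0.22, adjusted p = 0.0235). It was not called without Suffolk replicate 3, where the log2 fold change of -0.54 was short of the fold threshold, or with the replicate number as a block (adjusted p = 0.0530). The counts hold uniquely aligned read pairs with few mismatches to the reference, and whether sequence differences between the breeds or nuclear copies of mitochondrial genes affect COX-1 was not tested.

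Lipid metabolism held the lower nuclear gene of smallest p. CPT1A, the enzyme that controls entry of long-chain fatty acids into mitochondria, was at 32.2, 37.2 and 53.8 CPM in Fur and 84.2, 134 and 212 CPM in Suffolk (log2 fold change -1.74, SE 0.15, adjusted p = 6.87e-07). PLIN2, which coats lipid droplets, was at 19.02, 20.2 and 28.3 CPM against 27.4, 34.1 and 45.8 CPM, and SPTLC2, a subunit of the first enzyme of sphingolipid synthesis, at 37.5, 54.1 and 60.0 CPM against 60.8, 85.8 and 92.3 CPM. CPT1A and SPTLC2 had no overlap between the breeds, and PLIN2 overlapped at its edge. The cholesterol exporter ABCA1 fell by 1.42 on the log2 scale (SE 0.27, adjusted p = 0.000689). In all, 26 of 37 lipid genes were lower (70.3%), none was higher and the median log2 fold change was -0.67. The study listed all 37 as higher in Suffolk on these same ewes, so their direction is not independent evidence. Of the 1432 listed genes, 59.6% were lower and none was higher, with a median of -0.69.

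Of 52 lysosomal genes tested, 24 were lower (46.2%), none was higher and the median log2 fold change was -0.60. In 13 of the 52 every Fur ewe was below every Suffolk ewe, and the breeds overlapped in the rest. Over all genes this held for 0.945%. The study listed all 52 as higher in Suffolk on these ewes, so the share of all genes is not a like measure. The 46.2% was below the 59.6% of the listed genes. SGSH, which degrades heparan sulphate, was at 39.4, 45.3 and 72.8 CPM in Fur and 81.3, 99.0 and 136 CPM in Suffolk (log2 fold change -1.05, SE 0.12, adjusted p = 7.83e-06). LAMP1, a main protein of the lysosomal membrane, was at 230, 266 and 312 CPM against 350, 387 and 469 CPM, and acid sphingomyelinase, SMPD1, at 45.7, 63.2 and 67.4 CPM against 79.3, 90.4 and 107 CPM. None of the 3 overlapped. The log2 fold changes of LAMP1 and SMPD1, both -0.59, were just past the fold threshold. The call of LAMP1 was lost without each of 8 ewes in turn, with -0.56 without Fur replicate 4, and that of SMPD1 without each of 5, Fur replicates 3 and 6 and Suffolk replicates 2, 3 and 4, with -0.54 without Fur replicate 6. The summed level of the list was 3816 to 7139 CPM in Fur and 7834 to 9953 CPM in Suffolk. Other genes of trafficking were among the lower genes of smallest p, namely TRAPPC12, a subunit of a vesicle tethering complex, at 31.1, 34.2 and 40.9 CPM against 46.6, 57.5 and 67.5 CPM, and FYCO1, an adaptor that moves autophagosomes, at 44.6, 49.5 and 65.0 CPM against 71.5, 86.9 and 103 CPM.

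Secretory epithelial genes were lower in Fur in 12 of 16 cases (75%, against 59.6% of the listed genes), and none was higher. The study listed 15 of the 16 as higher in Suffolk on these ewes, so their direction is not independent evidence. MUC16 was at 246, 737 and 1577 CPM in Fur and 1142, 1672 and 2929 CPM in Suffolk (log2 fold change -0.96, SE 0.31, adjusted p = 0.0211), and MUC1, another membrane mucin, at 282, 553 and 909 CPM against 604, 1167 and 1751 CPM. CFTR, the chloride channel that hydrates mucus, was at 13.8, 101 and 131 CPM against 114, 193 and 334 CPM (log2 fold change -1.18, SE 0.31, adjusted p = 0.00758). The ewes of the breeds overlapped for all 3. The gel-forming mucin MUC5B, at 24.98, 62.0 and 80.6 CPM against 28.8, 108 and 418 CPM, was lower by 1.12 on the log2 scale. Summed over the list, Fur ewes lay at 1294 to 4208 CPM and Suffolk ewes at 3944 to 6981 CPM, and the count of lower members was 8 without Fur replicate 4 and 6 when the replicate number was fitted as a block.

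Of 22 genes of epithelial junctions, all listed by the study as higher in Suffolk, 13 were lower (59.1%). That share was near the 59.6% of all listed genes. Among the 13 were the tight junction protein OCLN, at 20.99, 34.8 and 44.9 CPM against 42.5, 53.4 and 78.3 CPM, and the adhesion protein CDH1, at 125, 336 and 463 CPM against 364, 524 and 637 CPM. Both overlapped slightly. OVOL2, a transcription factor that maintains epithelial identity, was at 3.86, 6.98 and 10.8 CPM against 8.43, 15.98 and 18.8 CPM (log2 fold change -1.08, SE 0.18, adjusted p = 0.000172). Of 8 genes of stratified epithelium, also all listed by the study, 7 were lower. Among them was KRT16, a keratin of activated squamous cells, at 7.204, 17.9 and 30.01 CPM against 21.9, 64.7 and 131 CPM. The count of lower stratified genes was 3 without Fur replicate 4. Without the same ewe, 9 of the 22 junction genes were lower.

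**Figure D3:**
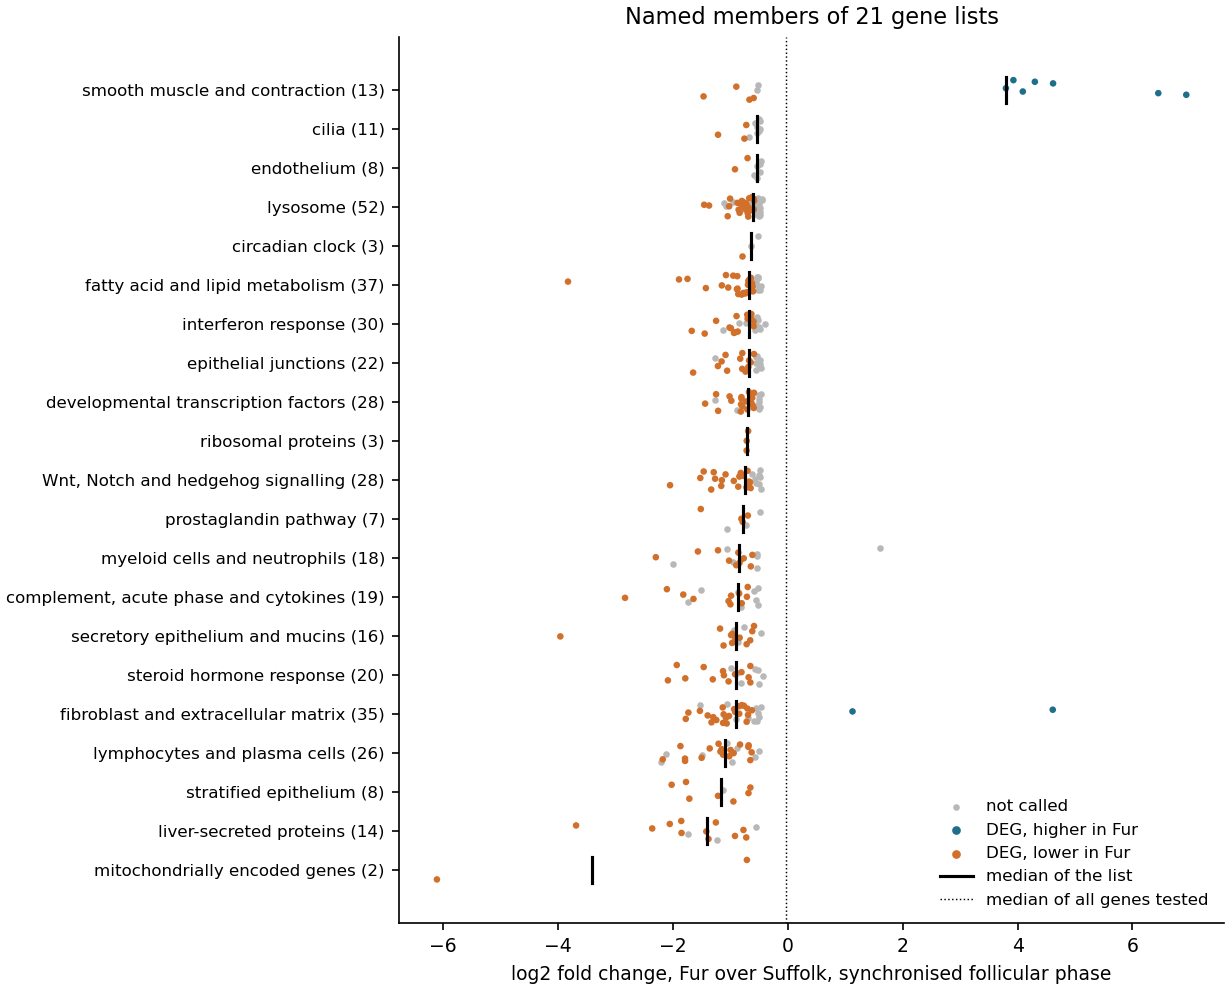
Log2 fold change of Fur over Suffolk at the synchronised follicular phase for the named members of 21 gene lists, with the number tested in brackets, DEGs in blue or orange, other members in grey, the list median as a black bar and the median of all genes tested, -0.02, as a dotted line. Nearly all members lie left of the dotted line since their names come from a table of genes called higher in Suffolk, and the smooth muscle members from 3.80 upwards, PI16, EGFL6 and the uncalled AQP9 lie to its right.

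Genes of immune cells were also named mostly from that listing. The ewes of the breeds overlapped in every lymphocyte, plasma cell and myeloid gene of the lists. Of 26 lymphocyte and plasma cell genes, 18 were lower (69.2%), but 11 without Fur replicate 4 and 11 without Suffolk replicates 2, 3 and 6. PRDM1, the factor that drives plasma cell differentiation and is also made in epithelium, was at 37.0, 74.1 and 99.2 CPM in Fur and 89.2, 132 and 231 CPM in Suffolk (log2 fold change -0.94, SE 0.19, adjusted p = 0.00111). TNFRSF18, a receptor of regulatory and activated T cells, was at 19.3, 27.4 and 43.9 CPM against 31.5, 92.0 and 164 CPM. The summed level of the list overlapped between the breeds, at 446 to 8967 CPM and 1460 to 54665 CPM, and held immunoglobulin genes whose near-identical copies make the count of each uncertain. The myeloid list had 11 of 18 members lower (61.1%), near the 59.6% of the listed genes. Among them was the integrin ITGB2, at 11.2, 18.7 and 23.7 CPM against 16.5, 32.6 and 41.6 CPM. The summed level of the myeloid list, 304 to 506 CPM in Fur, lay below the 564 to 796 CPM of Suffolk. The study listed 16 of the 18 as higher in Suffolk on these ewes, so this direction is not independent evidence. The endothelial list had 2 of 8 members lower (1 without Fur replicate 3, 3 without Suffolk replicate 8). That was 25%, below the 59.6% of the listed genes. Its summed level was 602 to 790 CPM against 845 to 1293 CPM. The study listed all 8 as higher in Suffolk on these ewes, so the direction of this sum is not independent evidence. The part that cell composition has in the gene differences was not tested.

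Signalling genes, too, carry names from the study's listing of genes higher in Suffolk. Of 28 genes of the Wnt, Notch and hedgehog pathways, 20 were lower (71.4%, against 59.6% of the listed genes), and 15 without Suffolk replicates 2, 3 and 6. APCDD1, an inhibitor of Wnt signalling at the cell membrane, was at 27.9, 49.2 and 76.3 CPM in Fur and 96.7, 117 and 171 CPM in Suffolk (log2 fold change -1.33, SE 0.18, adjusted p = 2.89e-05). The ligand WNT5A was at 15.5, 47.3 and 78.6 CPM against 55.7, 98.3 and 203 CPM, and the receptor NOTCH1 at 33.1, 39.6 and 49.4 CPM against 41.7, 64.4 and 87.2 CPM. APCDD1 did not overlap, whereas the other two did. Among 28 developmental transcription factors 19 were lower, SOX4, a factor of progenitor cells, by 1.44 on the log2 scale at 9.03, 15.8 and 21.7 CPM against 27.9, 37.0 and 63.7 CPM. Without Suffolk replicate 11, 13 of the 28 were called, and with the replicate number as a block 11 were.

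Of 20 genes of steroid hormone response, 13 were lower (65%, against 59.6% of the listed genes) and none was higher. The study listed 19 of the 20 as higher in Suffolk on these ewes, so their direction is not independent evidence. KLF9, a transcription factor induced by glucocorticoid and progesterone, was at 8.85, 13.3 and 14.8 CPM in Fur and 17.8, 22.1 and 41.4 CPM in Suffolk (log2 fold change -0.92, SE 0.14, adjusted p = 0.000118), with no overlap. GREB1, a classical oestrogen target, was at 69.7, 357 and 601 CPM against 357, 751 and 1054 CPM (log2 fold change -1.13, SE 0.30, adjusted p = 0.00733), and the glucocorticoid target FKBP5 at 41.6, 54.8 and 114 CPM against 46.6, 132 and 229 CPM. PGRMC1, a membrane-bound haem protein once named for progesterone binding, had an adjusted p of 0.000679 at a log2 fold change of -0.52, short of the fold threshold. Among genes known chiefly from the liver, most of them for secreted proteins, 11 of 14 were lower, and the study listed all 14 as higher in Suffolk. TTR, a carrier of thyroid hormone in blood, was at 0.147, 0.482 and 0.601 CPM against 0.817, 1.42 and 3.79 CPM.

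Several of the largest falls after that of COX-1 rested on few ewes. ENSOARG00000000101 was at 0, 0.263 and 2.64 CPM in Fur and 0.0969, 1.45 and 398 CPM in Suffolk, where the highest value was that of replicate 2 (log2 fold change -5.99, SE 1.603, adjusted p = 0.00821). Without this ewe it was -3.34 (adjusted p = 0.0230). Replicate 2 was also the highest for MUC5AC, a gel-forming mucin, at 0.794, 4.71 and 9.73 CPM in Fur and 3.098, 13.02 and 689 CPM in Suffolk. Its log2 fold change was -3.96 (SE 1.08, adjusted p = 0.00934), but -1.86 (adjusted p = 0.0203) without replicate 2. Without Suffolk replicates 2, 3 and 6 it was -0.89 with an adjusted p of 0.116.

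ENSOARG00000004139 and ENSOARG00000004202, with log2 fold changes of -5.15 and -5.36, were not called without Suffolk replicate 2, at -1.64 (adjusted p = 0.262) and -1.49 (adjusted p = 0.298). ENSOARG00000002786 fell by 4.40 on the log2 scale with all ewes, and its log2 fold change was -2.25 (adjusted p = 0.00654) without replicate 2. SERPINF2, the inhibitor of plasmin, had its highest level, 92.9 CPM, in Suffolk replicate 3, and its log2 fold change moved from -3.68 (adjusted p = 0.00781) to -1.65 (adjusted p = 0.00587) without it. The ligand WNT4, chosen after its values were seen, had 64.4 CPM in the same ewe and moved from -2.05 to -1.23 (adjusted p = 0.00129). The oxytocin receptor OXTR, also chosen after its values were seen, was at 0.956, 4.17 and 24.8 CPM against 2.53, 19.7 and 128 CPM, and its adjusted p of 0.0317 became 0.0724 without Suffolk replicate 3 and was also above 0.05 without each of 6 other ewes in turn, all Fur.

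The same breed difference was measured in other ewes. At the natural follicular phase, in 10 Fur and 8 Suffolk ewes, 1425 genes were DEGs (9.62%), 673 higher (4.54%) and 752 lower (5.08%). At the synchronised luteal phase, in 9 Fur and 10 Suffolk ewes, 2050 were (13.8%), 954 higher (6.44%) and 1096 lower (7.4%). Of the 1081 genes higher at the synchronised follicular phase, 304 were called higher at the natural follicular phase (28.1% of these and 45.2% of those) and 501 at the synchronised luteal phase (46.3% and 52.5%). Of the 884 lower genes, 229 were lower at the natural follicular phase (25.9% and 30.5%) and 333 at the luteal phase (37.7% and 30.4%). The median log2 fold change of the higher genes was 0.97, 0.51 and 0.64 at the synchronised follicular, natural follicular and luteal phases, and that of the lower genes -0.83, -0.52 and -0.56. The genes were chosen at the first of these, where the size of the change is part of the choice.

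Genes of clean separation in every state were few. No gene had every Fur ewe above every Suffolk ewe in all 3 states, and 2 genes had every Fur ewe below, COX-1 with log2 fold changes of -6.26 and -5.92 in the other states and TRAPPC12 with -0.56 (adjusted p = 0.0018) and -0.64 (adjusted p = 0.00031). The breeds did not overlap for 557 genes (3.76%) at the synchronised follicular phase, for 80 (0.54%; 30 above, 0.203%, and 50 below, 0.338%) at the natural follicular phase and for 208 (1.4%; 95 above, 0.641%, and 113 below, 0.763%) at the luteal phase. ENSOARG00000017888 was higher in each state, by 2.27, 1.46 and 1.72 on the log2 scale, and so was ENSOARG00000017989, by 2.46, 1.65 and 2.26. DENND3, a factor of membrane traffic, was lower in each, by -0.89, -0.91 and -0.83.

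Genes of the muscle list had smaller fold changes at the natural follicular phase. There DES had a log2 fold change of 1.35 (adjusted p = 0.246), with Suffolk ewes at 29.5, 196 and 4283 CPM, and ACTG2 one of 2.12 (adjusted p = 0.0526). At the luteal phase both were higher, DES by 2.30 and ACTG2 by 2.58. The whole list had 2 higher and 1 lower member at the natural follicular phase and 7 higher and 3 lower at the luteal phase. The difference between the follicular phases was itself tested as the interaction of breed with cycle, which passed for PCP4 (4.11 on the log2 scale, adjusted p = 0.0128) and PNCK (adjusted p = 0.00972) and not for DES (adjusted p = 0.0957) or ACTG2 (adjusted p = 0.16).

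Lists read differently in these ewes. Of the 1432 genes listed by the study as higher in Suffolk, 303 (21.2%) were lower in Fur at the natural follicular phase and 438 (30.6%) at the luteal phase. Against these shares, 56.2% of the secretory epithelial genes and 40.9% of the junction genes were lower at the natural follicular phase, and 37.5% and 36.4% at the luteal phase. Lymphocyte and plasma cell genes were lower in 7.69% and 73.1%, and Wnt, Notch and hedgehog genes in 35.7% and 67.9%. The median log2 fold change of the lymphocyte and plasma cell genes was -0.63 and -1.04 in these states, against -0.40 and -0.46 for the listed genes. The interaction of breed with cycle passed for none of these 26 genes, so their low share at the natural follicular phase does not show a smaller difference. Lysosomal genes, at 9.62% and 17.3%, had lower shares than the listed genes as a whole in both states. These shares are descriptions with no test, and the ewes of a state are the same for every list.

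**Figure D4:**
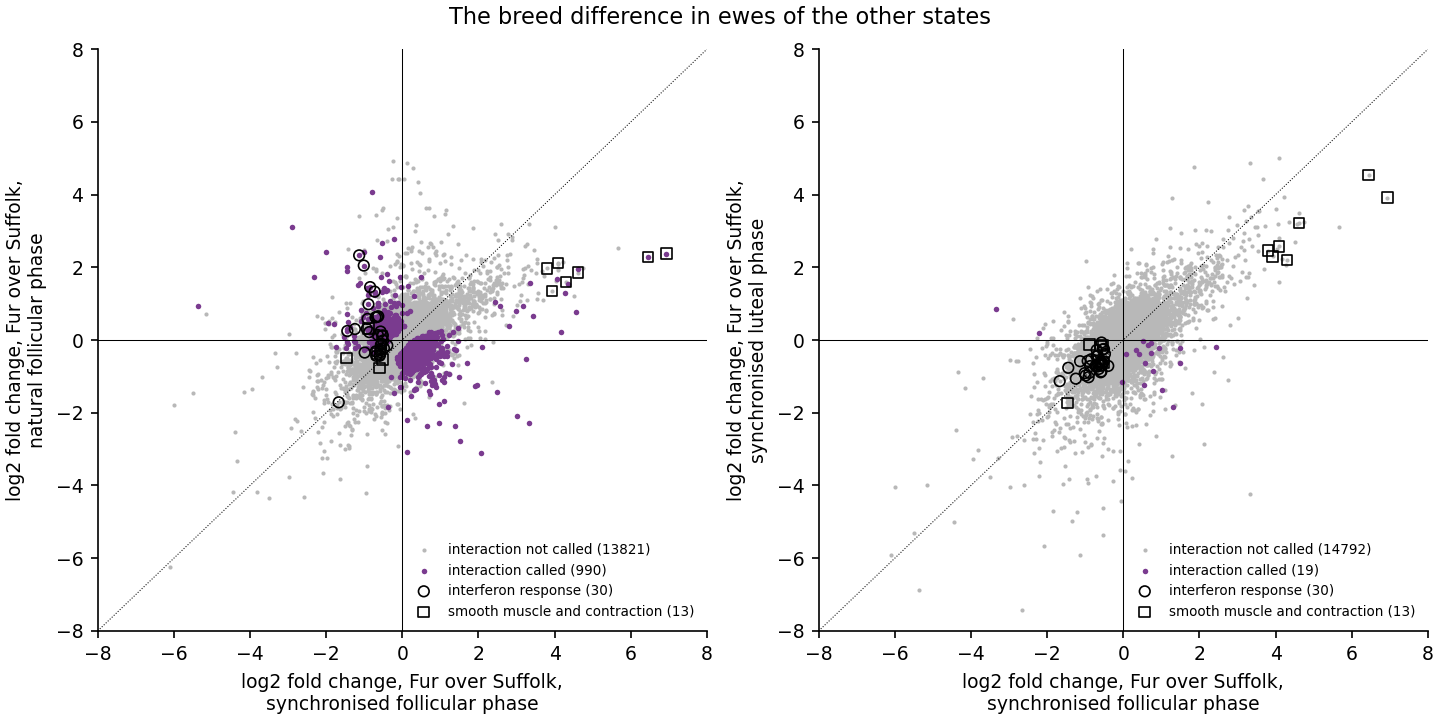
Log2 fold change of Fur over Suffolk at the synchronised follicular phase (horizontal axes) against that at the natural follicular phase (left) and the synchronised luteal phase (right) for 14811 genes, with genes whose difference itself differed between the states in purple, the 30 interferon-response genes as circles and the 13 muscle genes as squares. Purple genes number 990 on the left, mostly close to the origin and on opposite sides of 0 in the 2 states, and 19 on the right.

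The breed difference itself differed between the follicular phases for 990 genes (6.68%) by the interaction test, with 3501 genes at an unadjusted p below 0.05. It was more positive in the synchronised cycle for 730 genes (4.93%) and more negative for 260 (1.76%). The fold changes had opposite signs in the 2 cycles for 850 of the 990, and 591 were DEGs in neither. ENSOARG00000013745 was at 48.1, 106 and 141 CPM in Fur and 26.7, 45.4 and 103 CPM in Suffolk in the synchronised cycle, where it was higher by 0.96, and had a log2 fold change of -1.76 in the natural cycle (interaction 2.69, adjusted p = 0.00222). CPT1A was at 48.3, 79.4 and 151 CPM in Fur and 54.3, 77.8 and 185 CPM in Suffolk in the natural cycle, a log2 fold change of -0.20 (adjusted p = 0.621), and its interaction was -1.56 (adjusted p = 0.00618). NR1D2, a repressor of the circadian clock, had log2 fold changes of -0.79 and 0.25 and an interaction of -1.05 (adjusted p = 0.0140). The hour of sampling of each ewe was not used here.

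Interferon-response genes are induced when cells sense viral nucleic acid or receive interferon. Of the 30 tested, 13 (43.3%) had a more negative breed difference in the synchronised cycle, against 7.96% of the 1432 listed genes and 1.76% of all genes. At the synchronised follicular phase 17 were lower in Fur, but 10 without Fur replicate 3 and 11 without Fur replicate 4, with a list median of -0.68. At the natural follicular phase 6 were higher and 1 was lower, with a median of 0.13, where 0.768% of the listed genes were higher. The luteal phase had 14 lower and a median of -0.70. The study listed 29 of the 30 on the synchronised follicular ewes, which enter every interaction. Only the values of the natural follicular and luteal phases are free of that listing. The members of the list were chosen after their values were seen, so these values are not independent evidence either.

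The genes OAS1, ISG15, MX1, OAS2, RNF213 and LY6E are described ewe by ewe and were chosen after their values were seen. OAS1, a sensor of double-stranded RNA, was at 3.96, 5.65 and 19.6 CPM in Fur and 3.97, 14.6 and 56.5 CPM in Suffolk in the synchronised cycle (log2 fold change -1.13, adjusted p = 0.0877), and at 11.9, 34.3 and 67.96 CPM against 4.02, 5.57 and 14.3 CPM in the natural cycle (2.33, adjusted p = 0.00173). Its interaction was -3.49 (SE 0.64, adjusted p = 0.00372). MX1, a GTPase that blocks viral replication, was at 41.5, 74.4 and 259 CPM against 72.9, 161 and 277 CPM in the synchronised cycle and at 125, 176 and 498 CPM against 49.2, 90.2 and 129 CPM in the natural cycle, with an interaction of -2.08 (adjusted p = 0.00512). The breeds overlapped in each case, and their medians stood in opposite order in the 2 cycles.

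The ubiquitin-like protein ISG15 had log2 fold changes of -1.01 (adjusted p = 0.0476) and 2.05 (adjusted p = 0.00642) in the synchronised and natural cycles, and OAS2 of -0.85 (adjusted p = 0.0861) and 1.46 (adjusted p = 0.00274). The call of ISG15 in the synchronised cycle was lost without most single ewes, for instance at an adjusted p of 0.0881 without Fur replicate 2. RNF213, a large interferon-induced ubiquitin ligase, had -0.91 (adjusted p = 0.0136) and 0.58 (adjusted p = 0.0628) and an interaction of -1.52 (adjusted p = 0.0118). LY6E, a membrane protein that limits entry of viruses, had the same direction in both: it was lower in Fur in both cycles, by 1.67 and 1.71 on the log2 scale, and its interaction was 0.01 (adjusted p = 0.992). Fur replicate 1 was the highest Fur ewe of the synchronised cycle for OAS1, MX1, ISG15 and OAS2, and without it the log2 fold changes of MX1, OAS1 and OAS2 there passed the test, at -1.15 (adjusted p = 0.000944), -1.44 (adjusted p = 0.0374) and -1.14 (adjusted p = 0.0202).

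**Figure D5:**
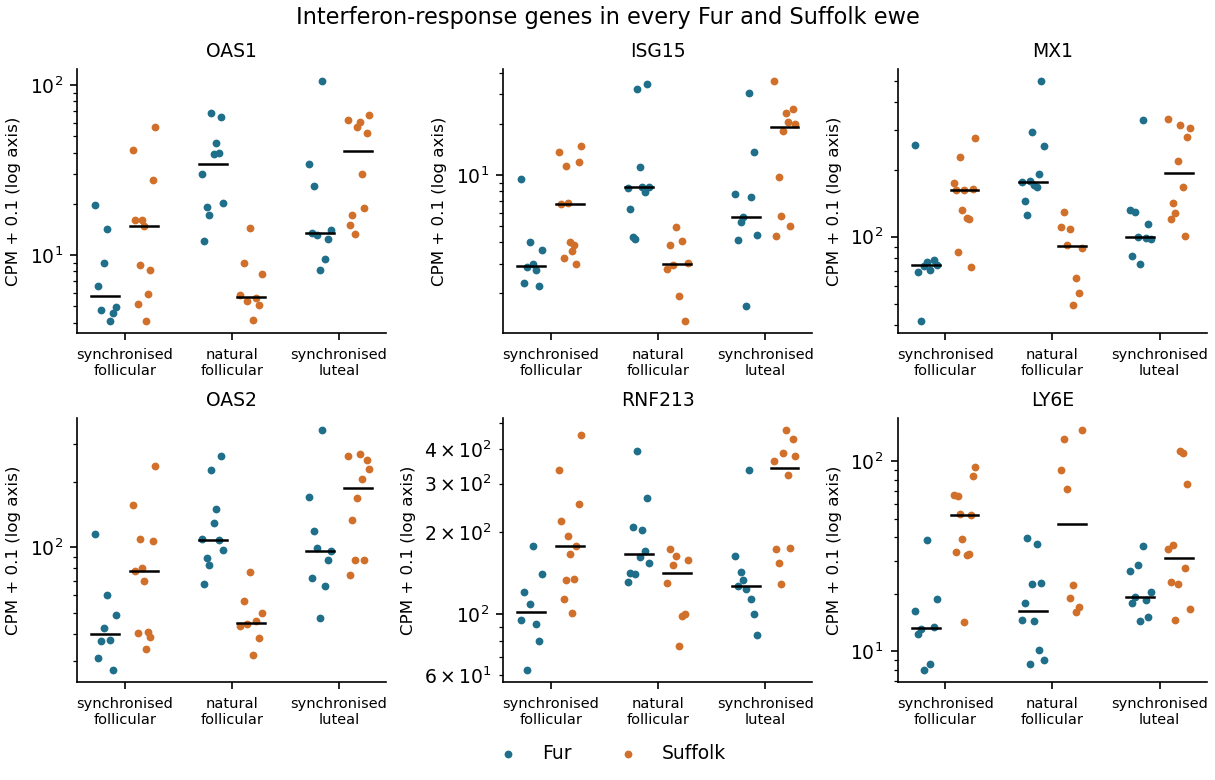
CPM plus 0.1 on a log axis for 6 interferon-response genes in every Fur (blue) and Suffolk (orange) ewe of the 3 states, with a bar at the median of each group. For OAS1, ISG15, MX1, OAS2 and RNF213 the Fur median is below that of Suffolk in the synchronised cycle and above it in the natural follicular phase, and for LY6E it is below in all 3 states.

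Between the synchronised phases the breed difference differed for 19 genes (0.128%), 17 more positive (0.115%) and 2 more negative (0.0135%) at the follicular phase, with 2171 at an unadjusted p below 0.05. ENSOARG00000000118 was at 5.46, 14.9 and 31.3 CPM in Fur and 1.17, 2.94 and 4.36 CPM in Suffolk at the follicular phase (log2 fold change 2.45, adjusted p = 2.21e-05), but had a log2 fold change of -0.20 at the luteal phase (interaction 2.64, adjusted p = 0.00613). RASGRF1, an exchange factor of Ras, had log2 fold changes of -2.21 and 0.19 and an interaction of -2.40 (adjusted p = 0.0471), which was not called with DESeq2's size factors (adjusted p = 0.0531). ENSOARG00000003228 was higher in Fur by 1.02 at the follicular phase and lower by 1.37 at the luteal phase (interaction 2.39, adjusted p = 0.0345).

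Fur and Norwegian White Sheep (NWS), the other Norwegian breed, were set against each other directly at the synchronised follicular phase, 8 ewes against 10. COX-1 was the only DEG (0.00675% of genes) with edgeR's quasi-likelihood test, and 1042 genes had an unadjusted p below 0.05. Its level in NWS was 1425, 1616 and 1967 CPM, against 24.6 to 47.8 CPM in Fur (log2 fold change -5.61, adjusted p = 2.42e-16). The NWS range overlapped the Suffolk range only at its edge, and the NWS median was below the lowest Suffolk ewe. The study reported COX-1 as higher in Suffolk than in NWS as well. NWS ewes were sampled in the same country as the Fur ewes, and the cause of the COX-1 differences was not tested. DESeq2's Wald test called 33 genes between these breeds.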

How the data were processed

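Cervical tissue was sequenced with 1 polyA library per ewe. According to the study's methods and, for versions, the submitters' processing notes, the authors trimmed reads with BBDuk, aligned with STAR 2.6.1b against the assembly Oar_v3.1, kept uniquely aligned pairs and used featureCounts (Subread 1.6.3) for gene counts. They deposited these raw read counts per gene, without normalization, so pairs that match several places or differ much from the reference are already lost. Whether counting used strand is not given in the sources used here.

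Groups were taken from the labels. A sample whose title and labels name different cycles and phases was left out. The filter kept the 14811 genes that reached 1 CPM in 10 or more of the 39 ewes of the synchronised follicular state. Each pair of breeds was fitted alone in edgeR 4.0.16 (R 4.3.3) with TMM normalization, the quasi-likelihood F test and Benjamini-Hochberg adjustment. DEGs needed an adjusted p under 0.05 and a fold change above 1.5, interactions an adjusted p under 0.05 alone. The SE is the log2 fold change over the square root of F. CPM use TMM library sizes. A level of 3 counts was taken as the limit of detection, which covers counting error only. No libraries of a breed agreed within counting noise (lowest chi-square per degree of freedom 28.4). The fit was tested on simulated data.

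Genes named were the 10 DEGs of smallest p in each direction, the 6 of largest fold with at least 5 CPM in the higher breed, the 5 most highly expressed, those near absent from a breed, 4 of smallest p per list, the list members the paper's text names, a fixed set of genes of the study, and 3 per direction of each interaction and of the Fur and NWS comparison. Members of the lists and OAS1, ISG15, MX1, OAS2, RNF213, LY6E, OXTR, ELOVL2, WNT4, NOTUM and CXCL14 were chosen after their values were seen. The ewes, lists and rules were chosen with earlier results of these data known. Names come from the study's supplementary tables, which pair 1352 identifiers with a name, and its columns of fold changes and p-values were not used. Alternatives were DESeq2 1.42.0 (size factors, Wald and likelihood ratio tests), other filters and thresholds, all 4 breeds in a fit, a replicate block and ewes left out.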

Additional observations from a re-analysis of the deposited data

Results flagged for a closer look

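In 18 of 153 genes named, 1 of the 8 Fur ewes of the synchronised follicular phase stood apart from the rest by Dixon's test (critical value 0.526). Chance gives about 1 in 20 groups where values are normally distributed. CPM were taken here without a log scale, so that rate may not hold, and genes of the same ewe are not independent. Fur replicate 1 was the highest for MX1 (258.8 CPM, next 78.3), ISG15 (9.40), OAS2 (115.04), CD177 (24.99), CD27 (6.01), BSDC1 (42.3) and ENSOARG00000004139 (3.66). Fur replicate 3 was the highest for AQP9 (107.6 CPM, next 5.71), DLL4 (27.3), ASB2 (65.8) and SAA1 (17.1), and the lowest for PGRMC1 (27.4). Fur replicate 5 was the highest for LY6E (38.5) and SGSH (72.8), replicate 8 for TRAPPC12 (40.9) and LRP4 (47.3), and replicate 6 for ENSOARG00000000101 (2.64), while it was the lowest for TTR (0.147). AQP9, a water and glycerol channel of neutrophils, had a log2 fold change of 1.61 with all ewes (adjusted p = 0.200) and of -1.61 without Fur replicate 3. CD177, a surface protein of neutrophils, was not called with all ewes (-1.999, adjusted p = 0.113) and was called without Fur replicate 1 (-2.88, adjusted p = 0.0322), but its log2 fold change was -0.31 (adjusted p = 0.739) without Suffolk replicate 6 and -0.27 with DESeq2's Wald test (adjusted p = 0.746).

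The breed difference differed between the synchronised and natural follicular phases for 990 genes by edgeR's quasi-likelihood test of the interaction. Beside those described above, interactions on the log2 scale were more positive in the synchronised cycle for PCP4 (4.11), PNCK (4.51, which depends on the prior count), PI16 (2.64), ENSOARG00000013745 (2.69), ENSOARG00000003228 (1.61), ENSOARG00000006123 (1.42), ENSOARG00000000118 (1.37), ENSOARG00000004905 (1.27), ENSOARG00000007348 (0.72) and ENSOARG00000017998 (0.56). They were more negative for OAS1 (-3.49), ISG15 (-3.09), OAS2 (-2.33), MX1 (-2.08), RNF213 (-1.52), ZC3HAV1 (-0.83), CD177 (-4.40), CPT1A (-1.56), CELSR3 (-1.25), NR1D2 (-1.05), APOE (-0.71), BSDC1 (-0.47), FYCO1 (-0.44), ENSOARG00000000052 (-1.63) and ENSOARG00000004202 (-6.29). Between the synchronised phases the difference differed for 19 genes, among them ENSOARG00000000118 (2.64), ENSOARG00000003228 (2.39), ENSOARG00000004905 (1.16), RASGRF1 (-2.40) and ENSOARG00000016475 (-4.21).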

How the results depend on the processing

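The count of DEGs between the breeds, 1965, was 1961 with DESeq2's size factors, 2140 with its Wald test, 2112 with its likelihood ratio test, 2287 without a filter, 1605 with at least 10 counts in every ewe and 1921 with all 4 breeds in a fit. It was 4678 with no fold change threshold and 323 (256 higher, 67 lower) with glmTreat, which tests against a 1.5-fold change. Leaving out each ewe in turn gave 1639 (without Fur replicate 4) to 2129 (without Fur replicate 1), and leaving out Suffolk replicates 2, 3 and 6 gave 1974, of which 1641 were shared. Replicate numbers do not pair the ewes: over 8 pairs the correlations ran from -0.451 to 0.295, and 1 Fur ewe correlated best with its own number. With the replicate number as a block there were 1596 DEGs (905 higher, 691 lower), 2132 at the luteal phase and 942 (581 and 361) in place of 1425 at the natural follicular phase. The interaction with the luteal phase, 19 genes, gave 198 with the Wald test and 5 with size factors, and Fur against NWS, 1 gene, gave 33 with the Wald test and 1 with size factors or a block. The interaction with the natural cycle, 990 genes, gave 1436 and 1002. The cause of these differences was not tested. Of 153 genes named, 2 reversed: AQP9, from 1.61 to -1.46 with either DESeq2 test, -0.61 with the block and -1.61 to 1.81 as each ewe was left out (the lowest without Fur replicate 3), and ENSOARG00000004202, from -5.36 to 1.39 without Suffolk replicates 2, 3 and 6. Its interaction of -6.29 (adjusted p = 0.0429) was -1.22 (adjusted p = 0.590) with the Wald test. Of the 120 named DEGs, 19 lost the call without some single ewe, 98 passed with the block and 46 passed with glmTreat. MUC16, MUC1, CFTR, OCLN, PRDM1 and KLF9 were among those that did not pass with glmTreat. Genes at or below about 3 counts, 0.0960 to 0.198 CPM in the Suffolk libraries, are beyond what this depth resolves.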

Other observations

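Some genes were split within the Suffolk ewes. FLT3, a receptor of dendritic cell precursors, was at 0.730, 0.870 and 1.36 CPM in the lowest, median and highest Fur ewe and at 0.562, 2.00 and 10.2 CPM in Suffolk (log2 fold change -2.30, SE 0.60, adjusted p = 0.00732 with edgeR's quasi-likelihood test), and it was also lower at the natural follicular phase (-2.15, adjusted p = 0.021) and the luteal phase (-2.73, adjusted p = 0.0053). ENSOARG00000002193 was at 0, 0.240 and 0.758 CPM in Fur and 0, 0.393 and 22.5 CPM in Suffolk, with log2 fold changes of -4.46, -4.18 and -5.01 in the 3 states. ELOVL2, which elongates polyunsaturated fatty acids and was chosen after its values were seen, was at 0.183, 0.390 and 1.72 CPM against 0.266, 3.59 and 44.0 CPM, with log2 fold changes of -3.82, -4.19 and -3.02. In all 3 genes the lowest Suffolk ewes were within the Fur range.

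Smaller lists gave these counts of lower members at the synchronised follicular phase, with none higher: 4 of 7 prostaglandin genes (2 without Fur replicate 3), 3 of 11 cilia genes (11 without Suffolk replicates 2, 3 and 6, 6 without replicate 3 alone and 2 without Fur replicate 1), 11 of 19 complement, acute phase and cytokine genes, 1 of 3 circadian genes (2 without Suffolk replicate 9), 3 of 3 ribosomal protein genes (1 without Fur replicate 3) and 2 of 2 mitochondrially encoded genes. The study listed all members of these smaller lists as higher in Suffolk on these ewes, so their direction is not independent evidence. The serum amyloid gene SAA1 stood under 2 identifiers, C3 under 2 and IFITM3 under more than 1, so reads may be divided between copies and their counts are uncertain. Both SAA1 identifiers were lower in Fur, by 1.64 and 2.83 on the log2 scale. The first was not called without Suffolk replicates 2, 3 and 6 (adjusted p = 0.0690 with edgeR's quasi-likelihood test). The second was not called with the replicate number as a block (adjusted p = 0.0503 with the same test). The clock repressor NR1D1 had a log2 fold change of -0.64 (adjusted p = 0.0691), and it passed without Fur replicate 3, at -0.85 (adjusted p = 0.0149).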
